A study of Mus musculus with 6 samples.

Results

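The 10 genes described here lie on chromosome 13 within 10 Mb of Foxc1, the gene deleted in the mutant embryos, and were taken by name from the 55487 genes of the count table. They comprise 6 genes of the Serpinb cluster (Serpinb1a, Serpinb6b, Serpinb9, Serpinb9b, Serpinb1b and Serpinb6a) and 4 genes on the other side of Foxc1 (Cmah, Dusp22, Irf4 and Exoc2). The 10 Mb window holds 559 annotated genes in all. The 10 genes were chosen with their mutant and control levels known, so the differences between the groups given for them below are a description, with no test. RNA was sequenced from the rib cage, which holds cartilage and forming bone, of 6 mouse embryos at 16.5 days post coitum (dpc). The 3 controls (E420, E434 and E435) are labelled wild type. The 3 mutants (E423, E433 and E440) are labelled Col2-cre;Foxc1-/-;Foxc2-/-.

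Both groups came from crosses of Col2-cre males heterozygous for deleted Foxc1 and Foxc2 with females homozygous for floxed alleles of both genes, so every embryo of this cross, control or mutant, received a floxed allele of each gene from its dam. In the mutants the Cre recombinase under the Col2 promoter deletes both genes in chondrocyte progenitors and the cells derived from them, and the other cells of the rib cage keep a floxed copy. The mice were on a mixed C57B6 and Black Swiss background. A gene near Foxc1 is inherited with its allele, so for the genes of this window an effect of the deletion and one of linked strain sequence cannot be told apart. The litter of each embryo is not given in the sources used here. In whole tissue, a change in the number of cells of a type and a change in the RNA of each cell cannot be told apart either.

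Serpinb genes encode clade B serpins, protease inhibitors without a secretion signal that work mostly inside cells. A serpin offers its reactive loop to a protease as bait, and the protease that cleaves it stays bound and inactive. The mouse carries copies of the human SERPINB1, SERPINB6 and SERPINB9 genes that arose by duplication in the rodent lineage and lie side by side on chromosome 13, while most other Serpinb genes lie on chromosome 1. Serpinb1 proteins inhibit neutrophil elastase, cathepsin G and proteinase 3, Serpinb6 proteins inhibit cathepsin G and other trypsin-like proteases, and Serpinb9 inhibits granzyme B. Of the other members, Irf4 encodes a transcription factor of lymphocytes, macrophages and melanocytes. Dusp22 encodes an atypical dual-specificity phosphatase that acts on JNK signalling. Exoc2 encodes the Sec5 subunit of the exocyst, which tethers secretory vesicles to the plasma membrane. Cmah encodes the hydroxylase that turns CMP-N-acetylneuraminic acid into CMP-N-glycolylneuraminic acid.

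Per-library values below are given in the order E420, E434, E435 for controls and E423, E433, E440 for mutants.

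In the GRCm38 coordinates of the annotation, Foxc1 lies at 31806633 to 31812476. The 4 genes on its proximal side are Cmah (24327404 to 24477377, forward strand), Dusp22 (30659999 to 30711231, forward), Irf4 (30749226 to 30766976, forward) and Exoc2 (30813919 to 30974093, reverse). Exoc2 is the nearest of them to Foxc1, at 0.833 Mb, followed by Irf4 at 1.04 Mb, Dusp22 at 1.095 Mb and Cmah at 7.33 Mb. On the distal side, Serpinb1a (32842092 to 32851185, reverse) is 1.03 Mb away. Serpinb6b (32965209 to 32979067), Serpinb9 (33003250 to 33017957), Serpinb9b (33027416 to 33041884) and Serpinb1b (33078575 to 33094380) follow on the forward strand between 1.15 and 1.27 Mb from Foxc1. Serpinb6a (33917918 to 34002794, reverse) is 2.11 Mb away. Between Foxc1 and Serpinb1a there are 4 protein-coding genes with at least 10 counts, and between Foxc1 and Exoc2 there are 2.

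Because the Serpinb genes are copies of each other, the sequences they share bear on what the counts mean. The longest run of identical coding bases was 81 bases between Serpinb1a and Serpinb1b, 62 bases between Serpinb9 and Serpinb9b and 57 bases between Serpinb6a and Serpinb6b. Each is longer than a read of 42 bases, so a read inside it cannot be placed by its own sequence. The reads were paired, and the other end of the fragment may lie outside the run. The first 2 are shown with 12 bases on either side, 5′ to 3′, from GENCODE transcripts, with the bases at which the copies differ in capitals. For the Serpinb1 pair the stretch covers coding bases 607 to 711 of both genes, and for the Serpinb9 pair coding bases 249 to 334.
Serpinb1a: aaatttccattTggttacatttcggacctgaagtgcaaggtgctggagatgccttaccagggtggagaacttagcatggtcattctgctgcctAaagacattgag
Serpinb1b: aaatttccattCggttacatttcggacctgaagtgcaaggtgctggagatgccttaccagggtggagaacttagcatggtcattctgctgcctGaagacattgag
Serpinb9: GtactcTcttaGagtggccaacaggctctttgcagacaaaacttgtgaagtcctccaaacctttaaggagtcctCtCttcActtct
Serpinb9b: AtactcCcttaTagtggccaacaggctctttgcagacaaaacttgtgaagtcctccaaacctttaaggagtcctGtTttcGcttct

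Such stretches were a small part of each gene. Of the distinct 42-base words in the transcripts of Serpinb1a, 5.03% also occurred in another Serpinb gene. The share was 4.67% for Serpinb1b, 3.31% for Serpinb6b, 1.36% for Serpinb9, 1.195% for Serpinb9b and 0.934% for Serpinb6a. Irf4 and Exoc2 shared no 42-base word with any other gene. Serpinb6a shared 26.5% of its words with other genes, mostly with Nqo2 and 1110046J04Rik, which lie on the opposite strand and overlap it. Of its exon bases 29.3% also belonged to Nqo2, Ripk1 or 1110046J04Rik, and the counting did not use strand, so reads from these bases cannot be assigned to one gene. The same holds for 278 exon bases (8.30%) of Serpinb9b, which also belong to Gm36099 on the opposite strand. Serpinb9b shared 6.93% of its words with other genes, mostly with Gm36099.

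The deposited files hold counts from 2 pipelines, which gave a check of the members that does not use the groups. The featureCounts program counted the 2 ends of a fragment separately and RSEM estimated whole fragments, so the RSEM expected count was doubled and divided by the featureCounts count. Over the 13537 genes with at least 100 counts in each library the median of this ratio was 0.971, with the 5th and 95th percentiles at 0.0659 and 1.35. For Serpinb1a, Serpinb6b and Serpinb9 the mean ratio lay between 0.979 and 0.985. For Exoc2, Irf4 and Dusp22 it was 0.968, 0.961 and 0.943. Serpinb6a had 1.03 and Cmah 1.08. All 10 members were inside the range of the percentiles, which is so wide that this says little of the agreement for any 1 gene.

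Serpinb1b was the member on which the pipelines differed most. Its ratio was 0.861, 0.706 and 0.692 in the 3 controls against 0.626, 0.826 and 0.597 in the 3 mutants. RSEM thus gave it fewer reads than featureCounts in every library, and the log2 difference came to 0.64 from RSEM counts against 0.89 from featureCounts. Its level is therefore uncertain. Serpinb9b ranged from 0.900 to 1.33 over the libraries, the highest ratio being that of control E434, in which it had only 3 counts.

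**Figure D1:**
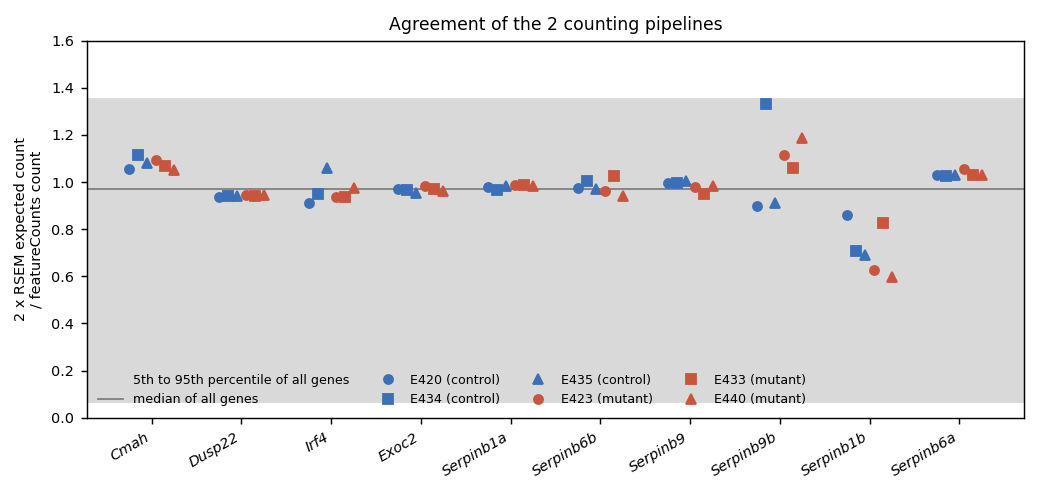
Ratio of the doubled RSEM expected count to the featureCounts count (vertical axis, no unit) for each member, with 1 point per library, controls in blue and mutants in red. The line is the median and the grey band the 5th to 95th percentile of all genes with at least 100 counts in each library. Serpinb1b lies lowest, between 0.597 and 0.861.

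The libraries were not equally alike, and this touches every difference below. Chi-square per gene on the RSEM fragments was 2.43 between mutants E423 and E440 and 6.28 between controls E420 and E435, against 48.7 to 255 for the other 13 pairs of libraries and 1 for sampling noise alone. These close pairs differed by more than sampling noise and were kept as separate samples. Control E434 and mutant E433 stood apart in cartilage and skin genes. Col2a1, the main collagen of cartilage, had 14427 CPM in E434, 4927 CPM in E433 and 162 to 631 CPM elsewhere (CPM is the count after division by library size with edgeR's TMM method). Xist and Ddx3y marked E433 as the 1 female embryo. The library totals were 37853988 to 47794799 counts, so that 3 counts, taken as the floor of detection, equalled 0.0628 to 0.0793 CPM.

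The targeted genes were read first. Foxc1 had 23.1, 36.9 and 24.2 CPM in the 3 controls against 3.56, 9.61 and 3.51 CPM in the 3 mutants. Foxc2, on chromosome 8, had 1.99, 4.83 and 3.22 CPM in the 3 controls against 0.649, 1.14 and 0.737 CPM in the 3 mutants. For both genes every mutant was below every control. Their log2 fold changes were -2.34 and -1.99, and neither passed edgeR's quasi-likelihood test after adjustment over all 26596 genes tested (adjusted p = 0.235 and 0.239). Both passed in DESeq2's test (adjusted p = 9.63e-07 and 2.07e-04).

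The members fell into 3 kinds by their levels in the 2 groups. Serpinb1a, Irf4 and Cmah were higher in each mutant than in each control, by a ratio of group means between 2.12 and 2.41. Serpinb9 and Exoc2 were lower in each mutant than in each control, with ratios of 0.673 and 0.898. The other 5 members overlapped between the groups. All of this is by CPM from featureCounts. Over all genes tested, by the same measure, the mutants were all above the controls for 6.81% of genes and all below them for 8.21%. In TPM (the RSEM estimate scaled for transcript length and library size), Serpinb9b and Serpinb1b were also higher in each mutant than in each control. Serpinb6b was lower in each mutant. The share of all genes apart in TPM was not computed. The CPM values were among those that chose the members, and nothing is read from the count by either measure.

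Serpinb1a, the inhibitor of neutrophil serine proteases, was the most abundant of the members that were higher in mutants. It had 941, 926 and 1137 counts in the 3 controls against 2394, 1515 and 2619 counts in the 3 mutants. In CPM this was 22.6 ± 1.90 (SD, n = 3) in controls and 49.8 ± 12.7 (SD, n = 3) in mutants, which gave a log2 difference of 1.14 (standard error 0.200). The controls lay within 20.4 to 23.9 CPM, and the mutant spread came from E433, which at 35.2 CPM stood between the controls and the other mutants at 57.6 and 56.8 CPM.

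Irf4 was the member for which the 3 mutants were closest together on the higher side. Its level was 1.17, 0.838 and 1.05 CPM in the 3 controls, from 46, 38 and 51 counts. In the mutants it was 2.31, 2.62 and 2.45 CPM, from 96, 113 and 113 counts. The log2 fold change was 1.27 (standard error 0.191). E433, which for Serpinb1a was nearest to the controls, had the highest Irf4 level of all libraries.

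Cmah had 2.698, 1.74 and 2.87 CPM in the 3 controls against 5.46, 4.69 and 5.31 CPM in the 3 mutants. The log2 difference came to 1.08 (standard error 0.217). Cmah lies 7.33 Mb from Foxc1, much farther than the other members, with 23 tested protein-coding genes in between. The mutants lay within 1 CPM of each other, and control E434 was the lowest library.

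Serpinb9, the granzyme B inhibitor, was the Serpinb member that was lower in every mutant. Its level was 10.3, 10.6 and 9.03 CPM in the 3 controls against 6.64, 6.40 and 7.11 CPM in the 3 mutants. The log2 fold change was -0.57 (standard error 0.122). Its neighbour and closest copy in the cluster, Serpinb9b, differed in the other direction. Serpinb9b had 20, 3 and 11 counts in the 3 controls against 86, 17 and 96 counts in the 3 mutants. In CPM these were 0.509, 0.0661 and 0.227 against 2.07, 0.394 and 2.08, a log2 fold change of 2.52 (standard error 0.835). The 17 counts of E433 fell between the controls, so the groups overlapped in CPM, and the higher group mean was that of E423 and E440. In TPM, E433 had 0.49 against 0.36, 0.11 and 0.09 in the 3 controls.

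Serpinb1b, next in the cluster, had 28, 17 and 32 counts in the 3 controls against 61, 17 and 64 counts in the 3 mutants. The mutant E433 and the control E434 had the same count, and the log2 fold change was 0.89 (standard error 0.528). Serpinb6b had 6.36, 4.13 and 5.44 CPM in the 3 controls against 4.26, 1.86 and 3.97 CPM in the 3 mutants. The log2 difference came to -0.66 (standard error 0.338), and E423 was above the lowest control. In CPM the 3 mutants differed among themselves by more than the controls did for both genes. In TPM the mutants differed by less. Their SD was 0.0493 against 0.150 in controls for Serpinb1b and 0.659 against 0.808 for Serpinb6b.

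Serpinb6a, the other end of the cluster, was the steadiest of the members. It had 63.9, 62.3 and 65.7 CPM in the 3 controls against 63.1, 63.5 and 66.9 CPM in the 3 mutants, which gave a log2 difference of 0.01 (standard error 0.066). The SD of its log2 CPM over the 6 libraries was 0.039, and only 1.04% of the 16568 genes with a mean of at least 1 CPM had a smaller SD. The median SD of these genes was 0.187. Because 29.3% of its exon bases overlap genes of the other strand, its level is uncertain. Reads of those bases may be missing from its count: 1110046J04Rik, which shares 584 of them, had only 139 counts over all libraries.

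Dusp22 and Exoc2, which flank Irf4, differed little. Dusp22 had 53.3, 47.6 and 55.8 CPM in the 3 controls against 74.0, 47.1 and 76.7 CPM in the 3 mutants. E433 was below all controls, and the log2 fold change was 0.34 (standard error 0.190). Exoc2 had 29.1, 26.4 and 27.7 CPM in the 3 controls against 24.1, 24.99 and 25.6 CPM in the 3 mutants. The groups did not overlap, but the log2 fold change was only -0.16 (standard error 0.082). Irf4 thus lay between 2 genes whose group means differed by a ratio of 1.262 and 0.898, while its own ratio was 2.41.

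**Figure D2:**
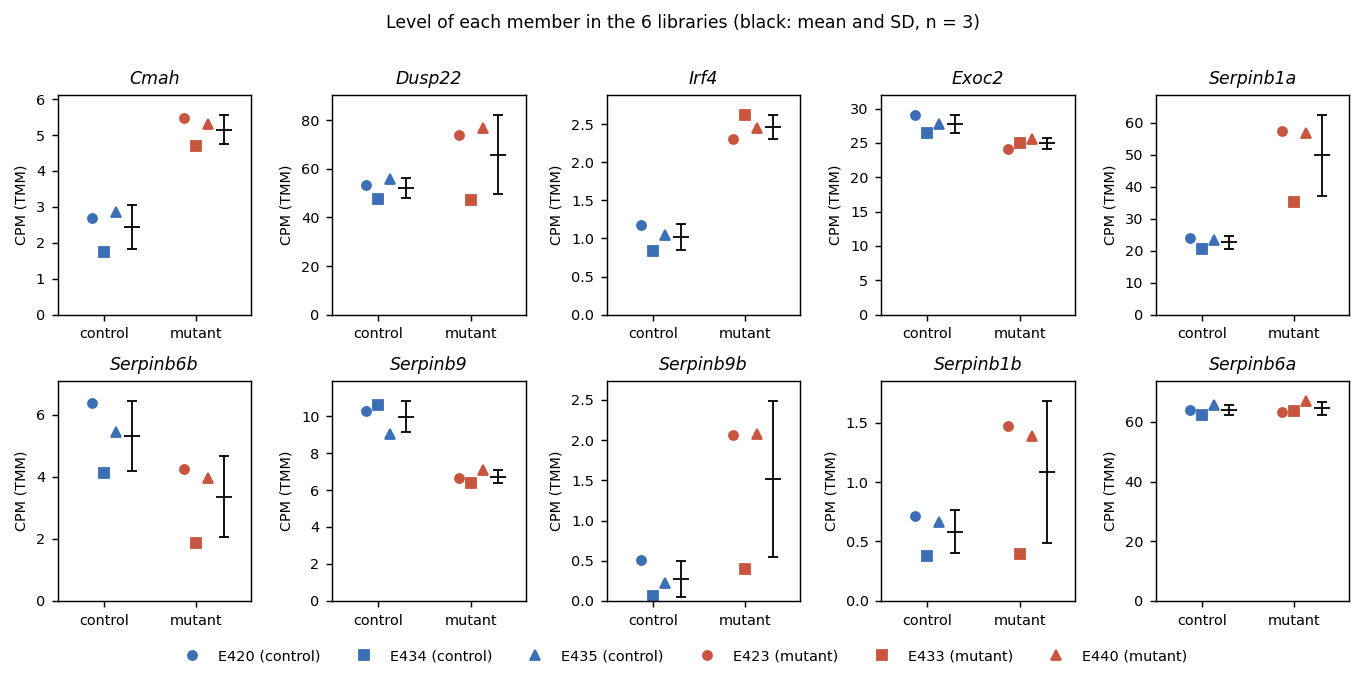
Level of each member (vertical axis, CPM scaled by TMM, starting at 0) in the 3 control and 3 mutant libraries, 1 point per library, with the group mean and SD (n = 3) in black. Irf4, Cmah and Serpinb1a have all mutants above all controls, Serpinb9 and Exoc2 have all mutants below them, and mutant E433 lies among the controls for Serpinb9b and Serpinb1b.

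The limits of the study's methods were an adjusted p under 0.1 and a 2-fold difference either way, there applied to DESeq2 in 2 pipelines. With these limits edgeR called 0 of the 10 members, against 0.0639% of all genes tested. At an unadjusted p under 0.05 it named 5 members, against 10.6% of all genes. DESeq2 called 4 members, Cmah, Irf4, Serpinb1a and Serpinb9b, all higher in mutants, against 1.33% of all genes called higher. Without E433 edgeR called 5 members (Cmah, Irf4, Serpinb1a, Serpinb9b and Serpinb1b) against 4.21% of all genes. Without E434 and E433 together, the call held 4 members (Irf4, Serpinb1a, Serpinb1b and Serpinb9b) against 8.25% of all genes. With E420 and E435 summed, and E423 and E440 summed, it called 0 members and 0 genes in all. The members were chosen on this contrast, and these counts support nothing.

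Mutant E433 divided the members by their CPM. On the log2 scale and relative to the control mean, Irf4 was at 1.34 in E433 against 1.16 and 1.24 in E423 and E440. Cmah was at 0.96 against 1.18 and 1.14, and Serpinb9 was at -0.63 against -0.58 and -0.48. For these 3 genes all mutants were alike. Serpinb9b was at 0.78 in E433 against 3.04 and 3.05, Serpinb1b at -0.47 against 1.31 and 1.24, and Dusp22 at -0.15 against 0.50 and 0.56. For Serpinb1a the 3 values were 0.64, 1.35 and 1.33. Serpinb6b was the reverse case, with -1.47 in E433 against -0.29 and -0.39.

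Levels of other cell types moved with the same libraries. The summed level of 10 keratinocyte markers, all detected, was 5392, 18.4 and 6217 CPM in the 3 controls against 27760, 3202 and 27870 CPM in the 3 mutants. Flg and Dsg1a had no count in E434. For this sum as for Serpinb9b in CPM, E423 and E440 were highest, E434 was lowest and E433 was below control E420. The 8 mast cell markers summed to 50.0 to 225.5 CPM in controls and 235.9 to 564.5 CPM in mutants, with Fcer1a at 0 in E420, E435 and E433. The 7 white adipocyte markers summed to 236.8 to 283.8 CPM in controls and 345 to 840.4 CPM in mutants. The 7 melanocyte markers summed to 16.9 to 29.6 CPM and 27.1 to 58.0 CPM, with 4 of them at 0 in E434. The 8 skeletal muscle markers summed to 11600 to 20460 CPM in controls and 15860 to 28110 CPM in mutants, highest in E423 and E440. The 7 erythroid markers summed to 18040 to 22500 CPM in controls and 7521 to 14460 CPM in mutants, lowest in E423 and E440. The 5 brown adipocyte markers summed to 50.8 to 63.9 CPM and 54.8 to 90.6 CPM, with Ucp1 at 0 in E420 and E433, and the 6 endothelial markers to 382.1 to 499.5 CPM and 369.3 to 469.4 CPM. The part of these cells in the members' levels was not tested.

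Markers of the blood cells in which Irf4 is best known were at low summed levels, except those of macrophages. The 8 B lymphoid markers summed to 32.3 to 40.3 CPM in controls and 39.3 to 41.2 CPM in mutants, with 1 or 2 of them at 0 in E435 and in each mutant. Most of that sum was Ebf1, a B cell factor gene that other cells also express, with 30.6 to 37.8 CPM in controls and 37.4 to 39.0 CPM in mutants. The 9 T lymphoid and NK markers summed to 2.87 to 3.18 CPM in controls and 4.20 to 5.87 CPM in mutants, with Cd3d or Cd8a or both at 0 in 4 libraries. As for Irf4, each mutant was above each control and E433 was the highest. The 8 macrophage markers, none at 0, summed to 257 to 267.5 CPM in controls and 218.9 to 245.4 CPM in mutants. The 9 neutrophil and myeloid precursor markers summed to 10.4 to 15.7 CPM and 11.96 to 18.5 CPM. The part of each in the level of Irf4 was not tested. Hepatocyte markers (8, none at 0) summed to 765.1 CPM in E433 and to 58.1 to 88.3 CPM in the other libraries.

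The labelled tissue was present in every library. None of the 12 early chondrocyte, 7 hypertrophic chondrocyte or 9 osteoblast and osteocyte markers was at 0 in any library. The early chondrocyte list summed to 1610 to 23460 CPM in controls and 583.7 to 8588 CPM in mutants, highest in E434 and E433. The hypertrophic list summed to 2246 to 2838 CPM in controls and 905.8 to 1407 CPM in mutants, and the osteoblast and osteocyte list to 10030 to 15180 CPM and 7245 to 7851 CPM.

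**Figure D3:**
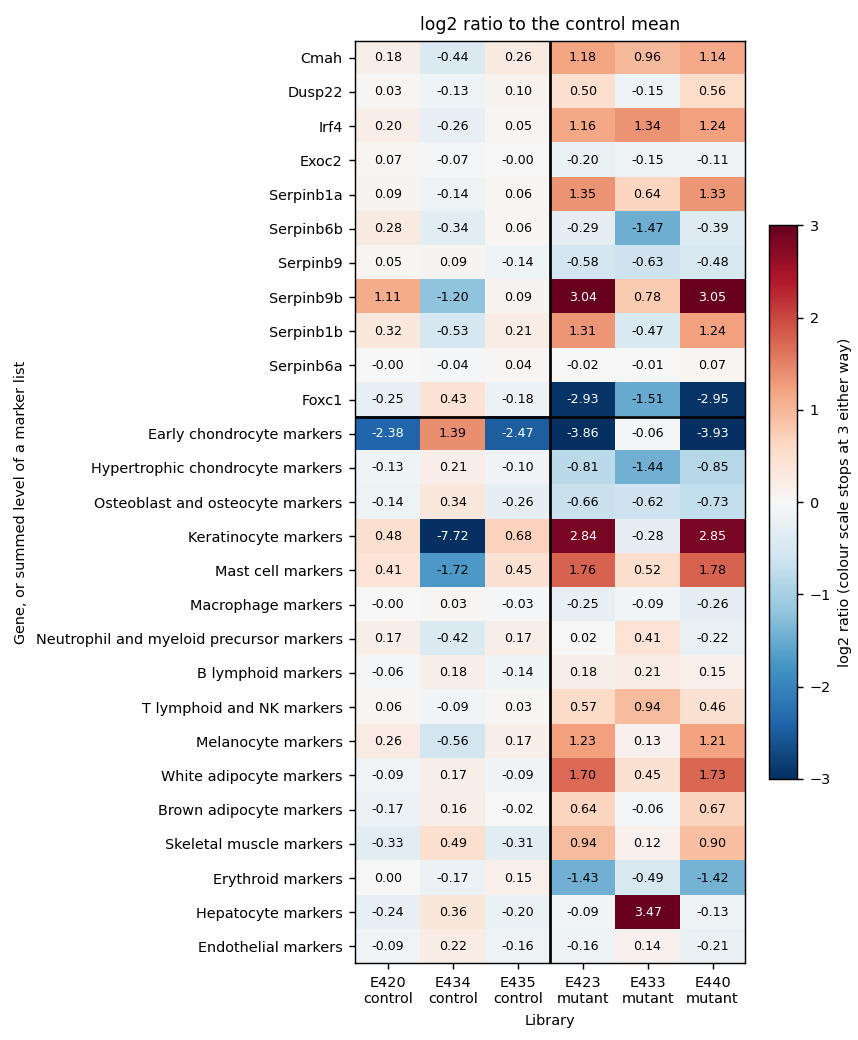
Value of log2 of the level over the control mean in each library (columns, 3 controls then 3 mutants), for the members and Foxc1 from log2 CPM (upper rows) and for the summed CPM of each marker list (lower rows). Mutant E433 has Irf4 at 1.34 and Cmah at 0.96, close to the other mutants, but Serpinb9b at 0.78 and keratinocyte markers at -0.28, where E423 and E440 are near 3.

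The window around Foxc1 gave the setting of the members. Of its 559 genes, 211 had at least 10 counts. Without the members and Foxc1, 200 genes were left, and edgeR called 0 of them past both limits, with 19 at an unadjusted p under 0.05 (9.50%, against 10.6% of all genes). DESeq2 called 2, Gm48704 and Gm30918, both higher in mutants, against 1.33% of all genes called higher. The median log2 fold change of the 200 genes was 0.07, and that of all genes tested was 0.01. The median absolute log2 fold change was 0.25 in the window and 0.23 over all genes.

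Values by distance depended on whether genes of low level were included. Over all tested genes, members and Foxc1 left out, the median absolute log2 fold change was 0.64 within 1 Mb of Foxc1 (13 genes). It was 0.30 from 1 to 2.5 Mb (23 genes), 0.22 from 2.5 to 5 Mb (31 genes) and 0.25 from 5 to 10 Mb (133 genes). The median log2 fold change in these 4 bins was 0.54, 0.20, -0.07 and 0.08. At a higher level the bins were more alike. Among genes with a mean of at least 1 CPM, members and Foxc1 left out, the median absolute log2 fold change was 0.13 within 1 Mb of Foxc1 (4 genes), 0.11 from 1 to 2.5 Mb (13 genes), 0.07 from 2.5 to 5 Mb (17 genes) and 0.16 from 5 to 10 Mb (56 genes). On the rest of chromosome 13 it was 0.14 (534 genes), and over all 16568 such genes 0.15. In the window as a whole, 14.4% of these 90 genes had groups that did not overlap, against 16.5% on the rest of the chromosome and 16.3% of all such genes. The first of these bins holds few genes.

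The protein-coding genes nearest to Foxc1 with at least 10 counts were read one by one. Gmds, which encodes GDP-mannose dehydratase, lies on the reverse strand with its 3′ end 0.0071 Mb past Foxc1. Its level was 15.3, 20.9 and 15.5 CPM in the 3 controls against 17.1, 22.4 and 15.7 CPM in the 3 mutants. The log2 difference came to 0.09 (standard error 0.188, adjusted p = 0.890 in edgeR). The forkhead genes Foxq1 and Foxf2, at 0.246 and 0.175 Mb on the other side, had log2 fold changes of 0.54 and 0.81 with standard errors of 0.803 and 0.679. Mylk4, a kinase gene, had -0.03, D930007J09Rik 0.21 and Wrnip1, which encodes a helicase-interacting protein, -0.16. None of these 6 passed the test, and in each the groups overlapped. Irf4 lay beyond Foxf2, Foxq1 and Exoc2 as seen from Foxc1, and Serpinb1a beyond Gmds, Mylk4, D930007J09Rik and Wrnip1.

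**Figure D4:**
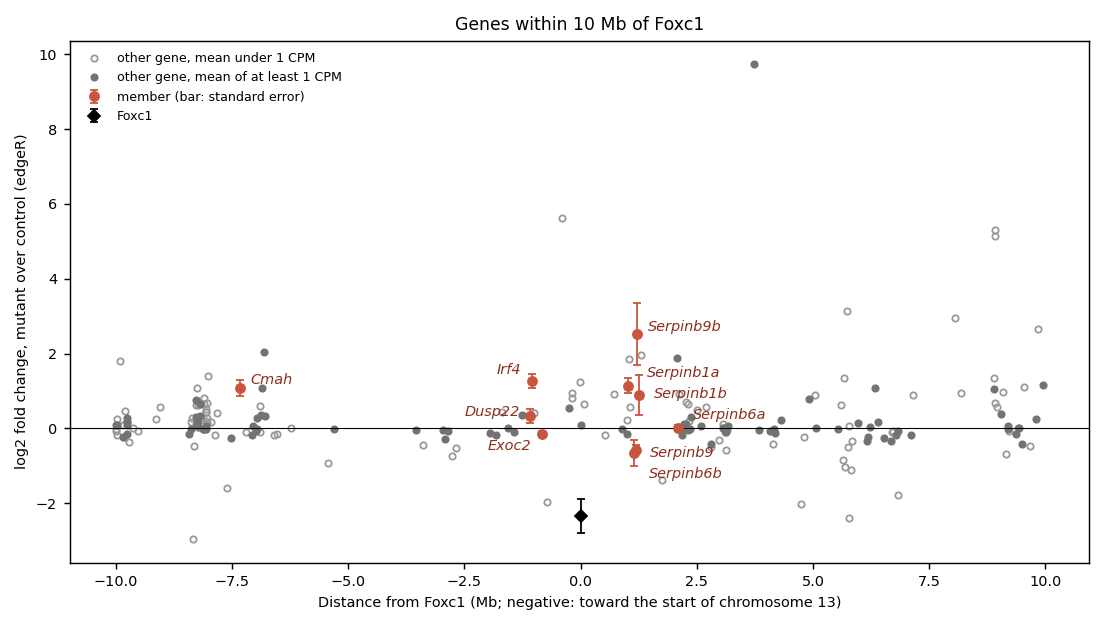
Value of log2 fold change, mutant over control (vertical axis, edgeR), against distance from Foxc1 in Mb (horizontal axis) for the 211 genes of the window with at least 10 counts. Members are red with standard errors, Foxc1 is a black diamond, and other genes are grey, filled where their mean was at least 1 CPM. The far point at 9.73 is Gm48704, with 3604 and 4275 counts in E423 and E440 and at most 9 in each other library.

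The other Serpinb genes of chromosome 13 were mostly silent. Of 9 found in the table, 4 had no count in any library and 3 (Serpinb6e, Serpinb9d and Serpinb9g) had 5 counts or fewer in all. Serpinb6c, 2.07 Mb from Foxc1, had 103, 42 and 161 counts in the 3 controls against 485, 85 and 545 counts in the 3 mutants. The log2 difference came to 1.89 (standard error 0.743), which did not pass the test (adjusted p = 0.455 in edgeR). Of all genes, Serpinb6c was the one that had the most 42-base words in common with Serpinb6b, which was lowest in E433, whereas Serpinb6c was lowest in E434 and highest in E423 and E440. Serpinb1c had 32, 19 and 35 counts and 58, 17 and 52 counts, with a log2 fold change of 0.58 (adjusted p = 0.713).

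The 12 Serpinb genes of chromosome 1, several of which are expressed in the epidermis, had a summed level of 234.9, 4.30 and 241 CPM in the 3 controls against 632.6, 103.4 and 614 CPM in the 3 mutants. Serpinb5, which encodes maspin, had 56.3, 0.0882 and 56.8 CPM in the 3 controls against 202.4, 26.9 and 193.2 CPM in the 3 mutants, the largest log2 fold change of those with a mean of at least 1 CPM (1.90, standard error 1.53, adjusted p = 0.693 in edgeR). Serpinb11 had the smallest, 0.09. None of the 12 passed the test and none had groups apart. Serpinb6a, Serpinb9 and Irf4 did not have this order of libraries. In CPM, Serpinb1a, Cmah, Serpinb1b and Serpinb9b, like the sum of these genes, had E423 and E440 highest and E434 lowest. In Serpinb1a and Cmah, however, E433 was above every control, whereas in the sum it was below E420 and E435. By CPM, Serpinb1b had E433 below E420 and E435 too, and Serpinb9b had it between them.

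The proteases that Serpinb1, Serpinb6 and Serpinb9 proteins inhibit were measured beside them. None of the 10 on the list passed both limits (0.0639% of all genes did), and the median log2 fold change was 0.63, with 4 of the 10 higher in every mutant than in every control, against 6.81% of all genes. Elane, Prtn3 and Ctsg, the neutrophil elastase, proteinase 3 and cathepsin G genes, had at most 33 counts in any library. Gzmb, whose product Serpinb9 inhibits, had 5, 0 and 6 counts in the 3 controls against 0, 41 and 8 counts in the 3 mutants. The largest log2 fold change was that of Klk5, a protease gene of the skin (4.64, standard error 1.65, adjusted p = 0.428 in edgeR), with 97, 0 and 119 counts in the 3 controls against 2567, 68 and 2754 counts in the mutants. The smallest at a mean of at least 1 CPM was -0.01 for F2, the prothrombin gene.

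Among the other interferon regulatory factors and partners of Irf4, 0 of 14 passed both limits in edgeR and 5 had an unadjusted p under 0.05 (35.7%, against 10.6% of all genes). In 4 of the 14 every mutant was above every control and in 4 every mutant was below (28.6% each, against 6.81% and 8.21% of all genes), and the median log2 fold change was 0.02. DESeq2 called Ikzf3 and Prdm1 higher, against 1.33% of all genes. Prdm1, a repressor that acts with Irf4 in plasma cells, had 7.97, 7.13 and 8.51 CPM in the 3 controls against 38.8, 8.21 and 40.9 CPM in the 3 mutants. Its log2 fold change of 1.90 (standard error 0.557) was the largest of the list among genes with a mean of at least 1 CPM, and did not pass (adjusted p = 0.389). Spi1, the partner factor PU.1, had the smallest, -0.62 (standard error 0.188, adjusted p = 0.390). Irf8, the family member most like Irf4, had -0.30 with overlapping groups.

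The lists around the other members came next. The 8 other exocyst subunits had log2 fold changes between -0.15 (Exoc5) and 0.13 (Exoc6b), with a median of 0.01, and none had an unadjusted p under 0.05. Of 17 tested genes of sialic acid synthesis, transfer and removal, 0 passed both limits, 5 had an unadjusted p under 0.05 (29.4%, against 10.6% of all genes), and 6 were lower in every mutant than in every control (35.3%, against 8.21% of all genes) while 1, Neu2, was higher. Their median log2 fold change was -0.16, against 0.01 over all genes. The smallest log2 fold change was that of St3gal5, the GM3 synthase gene (-0.46, standard error 0.119, adjusted p = 0.363), and the largest at a mean of at least 1 CPM that of St6galnac2 (0.53, standard error 0.247, adjusted p = 0.513). DESeq2 called Neu2, a sialidase gene with at most 19 counts in a library, higher, against 1.33% of all genes. Of 13 JNK pathway and atypical phosphatase genes, 0 passed. Dusp14 had the largest log2 fold change, 2.16 (standard error 0.717, adjusted p = 0.415), with 6.41, 4.35 and 6.97 CPM in the 3 controls against 37.96, 4.71 and 36.4 CPM in the 3 mutants, and Dusp12 the smallest at a mean of at least 1 CPM (-0.15).

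Levels of the members were compared with each other per length, in TPM (the RSEM estimate scaled for transcript length and library size), a measure that did not choose them. By this measure Serpinb6a stood highest, with 67.4 ± 1.68 TPM (SD, n = 3) in controls and 66.3 ± 4.14 TPM in mutants. Dusp22 and Serpinb1a followed at 37.7 ± 3.81 and 24.8 ± 3.497 TPM in controls and 47.0 ± 11.7 and 48.1 ± 11.4 TPM in mutants. Exoc2 had 9.19 ± 0.614 and 7.89 ± 0.703 TPM. Serpinb9 and Serpinb6b had 4.16 ± 0.398 and 4.06 ± 0.808 TPM in controls and 2.64 ± 0.095 and 2.44 ± 0.659 TPM in mutants. Cmah, Serpinb1b, Irf4 and Serpinb9b had group means between 0.187 and 1.08 TPM.

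Each neighbouring pair in this order was compared within libraries by an exact 2-sided sign-flip permutation test on log2(TPM + 0.1), with adjustment over the 9 pairs. In 5 pairs the order held in all 6 libraries (Serpinb6a over Dusp22, Serpinb1a over Exoc2, Exoc2 over Serpinb9, Serpinb6b over Cmah, and Cmah over Serpinb1b). Their permutation p of 0.0312 is the smallest that 6 libraries allow, and its adjusted value of 0.0562 missed the limit of 0.05, so 0 pairs passed. The mean log2 differences in these pairs were 0.68, 1.99, 1.33, 1.89 and 0.48. Counts of featureCounts in CPM per kilobase gave another order for 2 of them. By that measure Dusp22 was above Serpinb6a in E423 and E440, and Serpinb1b was above Cmah in every library but E433. The top rank also changed, with Serpinb1a at 8.87 to 10.4 against 11.5 to 12.1 for Serpinb6a in controls, but at 15.3 or more against at most 12.4 in mutants. In TPM the other 4 pairs had no fixed order. Dusp22 was above Serpinb1a in 4 of 6 libraries, the 3 controls and mutant E440. Serpinb9 was above Serpinb6b in 2 of 6, Serpinb1b above Irf4 in 4 of 6 and Irf4 above Serpinb9b in 3 of 6.

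**Figure D5:**
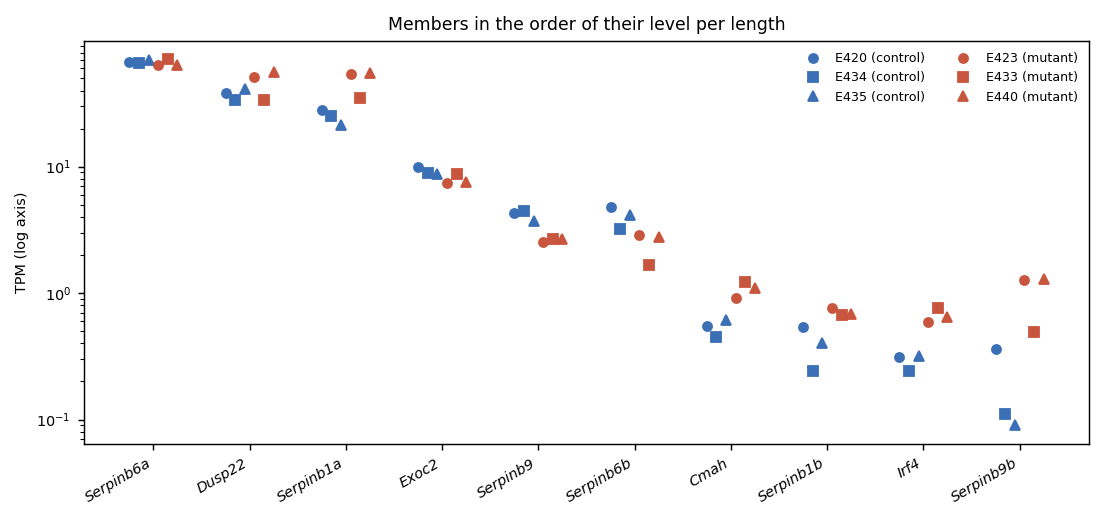
Level per length (vertical axis, TPM, log axis) of the members in the order of their mean, 1 point per library, controls in blue and mutants in red. Serpinb6a lies between 63.8 and 71.0 TPM in all libraries, and the 4 lowest members are at or below 1.29 TPM.

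Genes elsewhere in the genome had patterns close to those of the variable members. For each member whose log2 CPM had an SD of at least 0.5, up to 2 of the nearest of 16568 genes are given, by the root mean square difference of centred log2 CPM over the 6 libraries. Nearest to Irf4 was Shox2 (0.132), a homeobox gene of the developing limb. Nearest to Cmah were Lgals4 (0.074) and Adamtsl5 (0.115), and to Serpinb1a Ephx2 (0.0998) and Maob (0.137). Serpinb1b had Spns2 (0.072), Serpinb6b had Crb2 and Adamts18 (0.096 and 0.134) and Serpinb9b had Rgs20 and Hsd17b2 (0.299 and 0.343). None of the 10 genes named here lies on chromosome 13. Besides members and Foxc1, that chromosome held only 534 of the 16568 genes outside the window and 90 inside it. Nothing is therefore read from their absence.

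Promoters were read because several members with separate start sites differed between the groups, and Foxc1 encodes a forkhead factor. RefSeq start sites on GRCm38.p6 were given for 9 of the 10 members and not for Serpinb1a. The 250 bases before each site were searched on both strands for TAAACA, the core that forkhead factors recognise, which occurs in 12.03% of all 32851 promoters of this length, and for the longer form GTAAACA, which occurs in 3.17%. TAAACA occurred in 1 of the 2 promoters of Cmah and in those of Serpinb6b and Serpinb9. GTAAACA occurred in none of the members. In Serpinb9 the core matched on both strands, in copies that overlap. The following are the promoters of these genes, of Serpinb9b, the copy of Serpinb9 that differed in the other direction, and of Irf4, 5′ to 3′ on the strand of the gene, with TAAACA or its reverse complement in capitals. They lie at chr13:24414872-24415121 (Cmah), chr13:32965011-32965260 (Serpinb6b), chr13:33004291-33004540 (Serpinb9), chr13:33027164-33027413 (Serpinb9b) and chr13:30748983-30749232 (Irf4), all on the forward strand. Those of Cmah and Serpinb9 lie inside the genes as counted, which start at 24327404 and 33003250. The other promoter of Cmah, at 24327154 to 24327403, ends at the start of the gene and holds no TAAACA.
Cmah: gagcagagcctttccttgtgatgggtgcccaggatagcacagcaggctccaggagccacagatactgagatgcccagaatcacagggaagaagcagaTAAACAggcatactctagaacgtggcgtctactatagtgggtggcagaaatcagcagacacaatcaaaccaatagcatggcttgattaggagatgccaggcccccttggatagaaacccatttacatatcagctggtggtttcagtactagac
Serpinb6b: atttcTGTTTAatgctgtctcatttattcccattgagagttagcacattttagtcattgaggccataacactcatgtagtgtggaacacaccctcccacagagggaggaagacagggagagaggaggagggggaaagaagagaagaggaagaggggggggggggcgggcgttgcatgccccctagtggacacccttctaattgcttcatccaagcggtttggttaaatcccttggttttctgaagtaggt
Serpinb9: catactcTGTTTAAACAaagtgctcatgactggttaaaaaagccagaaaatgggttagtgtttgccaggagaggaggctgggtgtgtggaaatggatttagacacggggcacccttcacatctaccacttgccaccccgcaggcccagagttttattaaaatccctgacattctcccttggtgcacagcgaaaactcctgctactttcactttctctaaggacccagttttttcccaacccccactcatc
Serpinb9b: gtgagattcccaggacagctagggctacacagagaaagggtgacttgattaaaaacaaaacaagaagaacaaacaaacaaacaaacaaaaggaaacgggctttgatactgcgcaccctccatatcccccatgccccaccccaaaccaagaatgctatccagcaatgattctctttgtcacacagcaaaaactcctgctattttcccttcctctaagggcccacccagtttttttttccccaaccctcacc
Irf4: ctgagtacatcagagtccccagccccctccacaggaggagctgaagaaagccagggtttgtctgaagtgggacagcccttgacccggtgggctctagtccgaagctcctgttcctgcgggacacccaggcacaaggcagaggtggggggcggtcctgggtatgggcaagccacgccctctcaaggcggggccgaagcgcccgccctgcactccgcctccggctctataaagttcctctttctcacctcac

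The cores lie 153 bases before the start site in Cmah, 245 bases before it in Serpinb6b, and at 243 and 239 bases in Serpinb9. A TATA box (TATAAA, in 12.4% of all promoters) occurred only in Irf4 among the 9 members with a promoter. An interferon-stimulated element, searched as 2 copies of GAAA with any 2 bases between them, found in 2.98% of all promoters, occurred in that of Serpinb9 and in 1 of the 2 promoters each of Exoc2 and Serpinb6a. The GC content of the 250 bases was 46.0% in Serpinb9b, 47.6% in Serpinb9, 49.6% in Serpinb6b and in this promoter of Cmah, and 63.6% in Irf4, against a median of 52.4% over all promoters. Dusp22, whose groups overlapped, had 77.6%. A match of these letters is no measure of binding, and its absence from 250 bases says nothing of the factor.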

How the data were processed

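RNA-seq files of 6 rib cage samples, 3 control and 3 mutant as labelled, were analysed. The authors aligned paired 42-base reads to GRCm38 with HISAT2 2.1.0 and deposited counts per gene from featureCounts 1.6.0 on GENCODE release 25. The header of the count table shows that each read end was counted on its own, without strand, with primary alignments only. Reads with several alignments were not left out: Rps19-ps1 and Rps19-ps2, identical over 438 bases, had 15377 and 15846 counts. From STAR 2.7.6 and RSEM 1.2.31 the authors also deposited expected counts per fragment, rounded here to whole numbers, TPM, and FPKM, which was not used. A further 12 columns, in tables of the authors' own comparisons (fold changes and p-values), were not used. Symbols of GENCODE release 21 matched 55227 of 55487 genes.

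The 26596 genes whose counts summed to at least 10 were normalised by TMM, then fitted with edgeR 4.0.16 (quasi-likelihood test, R 4.3.3), with Benjamini-Hochberg adjustment over all of them. Standard errors are the log2 fold change over the root of F. DESeq2 1.42.0 was run as an alternative. Limits were an adjusted p under 0.1 and a log2 fold change of 1 either way. In log2 CPM a prior count of 2 was used. The fit was tested on simulated counts for 26142 genes, 200 of them changed by 1.5 on the log2 scale. Of these 200, edgeR recovered 138 and DESeq2 157, with 9 and 39 other genes called. The simulated libraries were independent, with the same relative spread for every gene and no outlying or close libraries. These rates are therefore no measure of what the fit finds in the real libraries. Nothing in the labels says which embryos share a litter, and p-values measure the spread between these samples. Intervals from counting alone would not cover it.

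The 10 members, the 7 pathway lists and the 16 marker lists were chosen with earlier results of these data known. Genes were named by rule: the members, Foxc1 and Foxc2, window and list genes past both limits, the 5 tested protein-coding genes on either side of Foxc1, the other Serpinb genes of chromosome 13, the extremes of each pathway list at a mean of at least 1 CPM, and the 2 genes nearest in pattern to each variable member. Of the last, 2 are not reported here. Other genes were named after their values were seen. Promoter sequences are from RefSeq and transcripts from GENCODE release 21.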

Additional observations from a re-analysis of the deposited data

How the results depend on the processing

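The log2 fold change of each member moved by less than the spread within groups under all 13 alternatives. Its sign held for 9 members, and that of Serpinb6a, near 0, changed under 2. Serpinb9b ranged from 2.06 to 3.34, Serpinb1a from 1.02 to 1.34, Irf4 from 1.105 to 1.38, Cmah from 0.89 to 1.22 and Serpinb9 from -0.64 to -0.48. Serpinb6b went from -0.86 without E423 to -0.36 without E433, Serpinb1b from 0.62 to 1.298 likewise, and Dusp22 from 0.21 without E440 to 0.53 without E433. Calls depended on the tool and on single libraries. DESeq2 called 4 members, 2 other window genes and 3 pathway genes, against 1.79% of all genes. For edgeR these were 0 of each, against 0.0639% of all genes. Leaving out 1 library at a time gave 0 to 5 members, 0 to 7 window genes and 0 to 7 pathway genes. All these calls came without mutant E433, where 4.21% of all genes were called. With E434 and E433 left out together (chosen after the values were seen), edgeR called 4 members, 19 window genes and 18 pathway genes, against 8.25% of all genes, on a spread estimated from the 2 close pairs alone. With the close pairs summed (likewise chosen), it called 0 genes in all. The log2 fold change of Foxc1 was -2.33 and that of Foxc2 -1.99 in DESeq2, both then past the limits, as they were without E434 and E433 at -2.74 and -1.91. Leaving out single libraries gave -2.98 to -2.09 for Foxc1 and -2.26 to -1.63 for Foxc2, past the limits only without E433. TMM against size factors, the count filters, the RSEM counts, the limits on p, the smaller windows, the pseudocounts and the other measure of the level order, and the background minimum of the pipeline ratio changed none of the counts of 0. The cause of these changes was not tested. No paired analysis was possible because the sources used here do not say which embryos share a litter, although the study compared embryos of the same litters, and the embryo numbers do not pair them. Depth limits Serpinb9b, Serpinb1b and Irf4, with 3 to 113 counts a library.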

Other observations

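Gm48704, a long noncoding RNA gene 3.73 Mb from Foxc1 and one of the 2 window genes called by DESeq2, had 4, 0 and 5 counts in the 3 controls (E420, E434, E435) against 3604, 9 and 4275 counts in the 3 mutants (E423, E433, E440). The other, Gm30918, 5.73 Mb away, had 4, 1 and 2 counts in the controls and 28, 6 and 31 in the mutants. G630018N14Rik, a noncoding gene 0.398 Mb from Foxc1, had 0 counts in each control and 6 in each mutant, at most 0.144 CPM. Serpinb1-ps1, a pseudogene of the Serpinb cluster, had 2, 1 and 3 counts in the controls and 12, 4 and 6 in the mutants. None of these 4 passed the limits in edgeR (adjusted p = 0.325, 0.359, 0.282 and 0.439), and they were chosen after their values were seen. Nrn1, which encodes neuritin and lies 4.91 Mb from Foxc1, had 140, 130 and 164 counts in the controls and 222, 264 and 255 counts in mutants, with a log2 fold change of 0.79 (adjusted p = 0.218 in edgeR). As for Irf4, E433 was the highest library.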
